A study of Mus musculus with 6 samples.

Results

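Mitochondrial fatty acid oxidation, with the ketone step Bdh1, was followed as a list of 36 genes in kidneys of wild-type and homozygous mutant mice. Genes were listed by name, with earlier results of these data known, and no measured threshold chose them. A member needed a probe that the platform annotation ties to exactly 1 gene symbol, and the probe with the highest mean deposited intensity over the 6 arrays stood for its gene. This found 32 of the 36 genes, among 18048 genes with such a probe. Acsl1, Acsm3, Acad10 and Hadha had no such probe and were not analysed here. Of the 32, 31 passed the filter on dim probes and were tested, and Cpt1b did not.

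The study profiled RNA from a portion of kidney of 6 mice on CodeLink arrays, a single-colour oligonucleotide platform, with 1 array per animal. The 3 animals labelled WT were wild type and the 3 labelled KO were homozygous for a mutation. The sources used here do not give the mutated gene, the strain, the age, the sex or any treatment. The allele could therefore not be checked against the labels. Vessels had been flushed with buffered saline before the tissue was frozen.

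Fatty acids enter this pathway as acyl-CoA esters made by the Acsl and Acsm synthetases, and long chains cross into the matrix by the carnitine shuttle. Inside, each turn of the spiral removes an acetyl unit: an acyl-CoA dehydrogenase passes electrons to the electron transfer flavoprotein, and hydratase, hydroxyacyl dehydrogenase and thiolase steps follow. Proximal tubule cells of the kidney depend on this pathway for most of their energy, and the nuclear receptor PPAR alpha, product of Ppara, drives transcription of many of its genes.

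Each level below is a log2 ratio of a probe's intensity to the median of its array. A difference is the mutant mean minus the wild-type mean in log2 units, with the standard error (SE) of the limma fit. Each group has 3 arrays unless stated, and group errors are SDs. A gene is said to have fallen or risen only past an adjusted p of 0.05 (limma, Benjamini-Hochberg over 25834 probes). Values below a low-signal limit of 0.59, set from the spread of the dimmest values, are described as below the limit.

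The median difference was negative at every step of the pathway, and some members of most steps fell in mutant kidney. Of the 31 members tested, 10 fell and 0 rose (limma, Benjamini-Hochberg), while at an unadjusted p under 0.05 the counts were 20 lower and 1 higher, where 5.48% of all probes were lower and 11.4% higher. Across all genes tested, 1.59% were called lower and 5.68% higher, and across all probes 1.27% were lower, 4.11% higher and 5.39% either. The difference was negative for 30 of 31 members, against 42.5% of all genes tested, and the median member differed by -0.49, against 0.08 over all genes. Among the 9569 genes tested with a mean level above the low-signal limit, 2.4% were called lower. Their difference was negative for 38.4%, with a median of 0.10. For 20 of the 30 members with 6 values, all mutant arrays lay below all wild-type arrays, which 8.89% of genes did. For 1 member, Acsl5, all mutant arrays lay above, which 17.8% of genes did.

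The call count was lower in every fit that lacked 1 array, and those fits have fewer samples. It also changed with the variance model. Leaving out wild-type replicates 1, 2 and 3 in turn gave 8, 5 and 2 members lower, and leaving out mutant replicates 1, 2 and 3 gave 4, 3 and 5. With no intensity trend in the prior variance, 0 members passed by limma, and 12 probes on the whole array were called lower. At an unadjusted p under 0.05 that fit had 13 members lower and 1 higher, where 5.06% of all probes were lower and 9.05% higher. The median difference of the members stayed between -0.52 and -0.44 as arrays were left out in turn. The mean level over the 30 members with 6 values was 4.49, 4.59 and 4.59 on the wild-type arrays and 4.03, 4.02 and 4.14 on the mutant arrays, so the groups did not overlap.

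**Figure D1:**
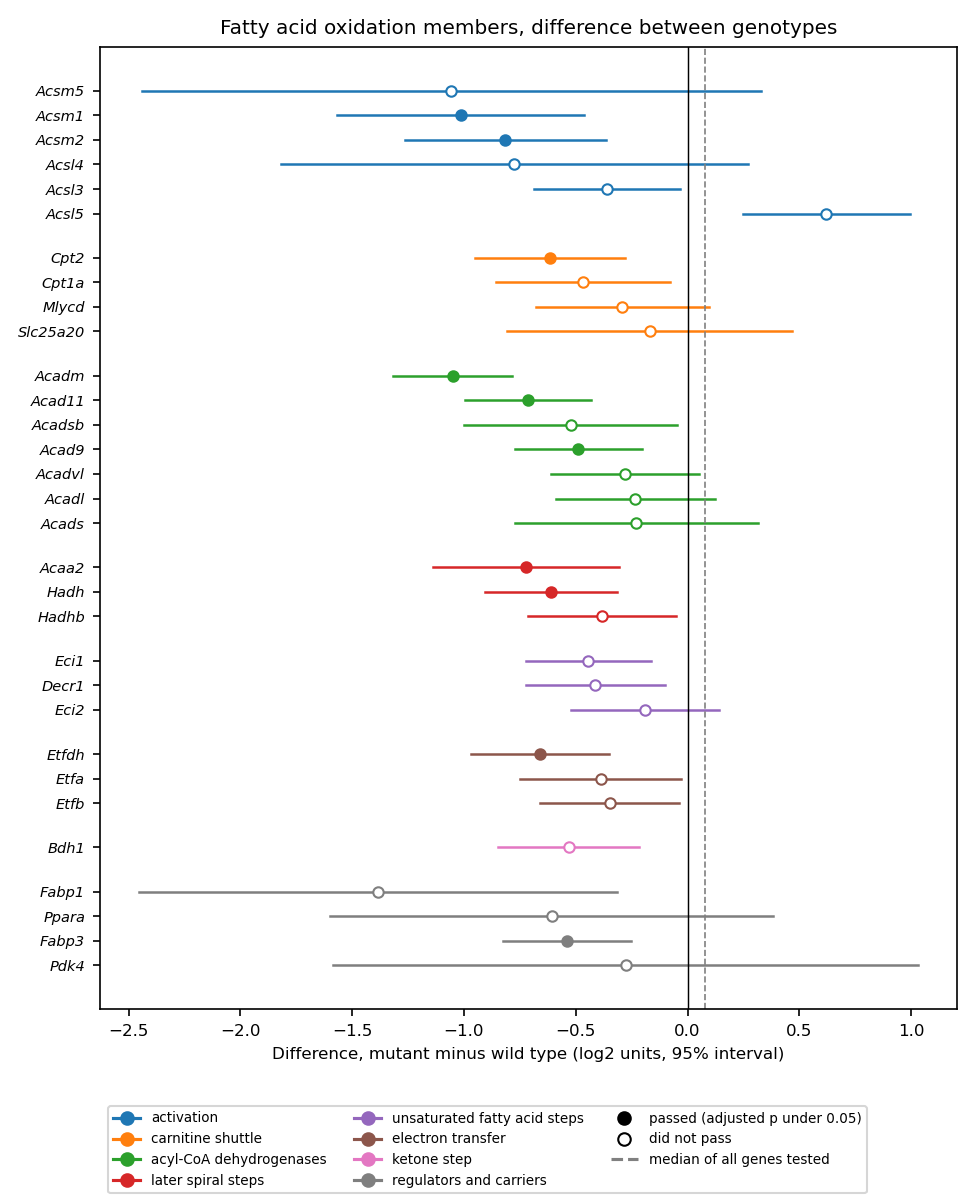
Difference between genotypes for each of the 31 members tested (mutant minus wild type, log2 units, with 95% intervals of the limma fit), grouped by step. Filled points are the 10 members that passed; 30 points lie left of 0, and Acsl5 at 0.62 is the point on the right.

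Among the activation genes, the medium-chain synthetases Acsm1 and Acsm2 fell. Of 6 synthetases tested, 2 fell and 0 rose, and the median difference was -0.80. That median includes the dim Acsl4 and Acsm5 and was -0.42 without mutant replicate 2, while the mean difference of the 5 members with 6 values was -0.47. Acsm1, a medium-chain acyl-CoA synthetase that also activates butyrate, read 5.38, 4.49 and 5.31 in wild type and 4.33, 3.44 and 4.35 in mutants. Replicate 2 was the lowest animal of both genotypes, and the groups lay 0.13 apart. The fall was 1.02 ± 0.26 on the log2 scale, or 2.02-fold (limma, adjusted p = 0.0338). Acsm2, a medium-chain synthetase typical of proximal tubule and liver, read 6.43, 7.41 and 6.93 in wild type and 6.15, 6.16 and 6.02 in mutants. Wild-type animals spread widely while mutants were close together, and the fall was 0.82 ± 0.21 (limma, adjusted p = 0.0356). Acsm1 lost its call when the fit lacked replicate 1 or 3 of wild type or replicate 2 of the mutants (limma, adjusted p between 0.13 and 0.159). It was also lost with no floor, a pseudocount of 0.5, the lowest 50% of probes left out, robust variance, and replicates 2 and 3 alone (limma, adjusted p between 0.0549 and 0.116). Acsm2 kept its call when wild-type replicate 1 was left out and lost it for each of the other 5 arrays (limma, adjusted p between 0.0932 and 0.126), and it was lost with no floor (0.0583).

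The long-chain synthetases did not pass. Acsl5, an isoform found on mitochondria and the endoplasmic reticulum, read 4.25, 4.80 and 4.97 in wild type and 5.17, 5.29 and 5.41 in mutants. Every mutant array was above every wild-type array, and the difference of 0.62 ± 0.17 did not pass the threshold (limma, adjusted p = 0.0559). This adjusted p was 0.0414 without wild-type replicate 3, ranged from 0.00968 to 0.175 over the alternatives with an intensity trend, and was 0.328 with no trend. Acsl3, which is linked to lipid droplets, read 4.25, 4.77 and 4.47 against 4.28, 4.06 and 4.07 and did not pass (-0.36 ± 0.15). The remaining members, Acsl4 and Acsm5, were dim. Acsl4 was above the limit on 1 array of each genotype (-0.77 ± 0.49), with overlapping groups. Acsm5 read 1.35 and 0.75 in wild type, with the third value missing and left out of the fit, and 0.82, -1.50 and 0.66 in mutants. Its groups overlapped, and the difference of -1.06 ± 0.64 did not pass.

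In the carnitine shuttle, 1 of 4 tested members fell, 0 rose and the median difference was -0.38. Cpt2, the inner-membrane transferase that remakes acyl-CoA in the matrix, read 3.59, 3.83 and 3.87 in wild type and 3.32, 2.93 and 3.20 in mutants. The groups did not overlap, and Cpt2 fell by 0.62 ± 0.16 (limma, adjusted p = 0.034). It lost its call when replicate 2 or 3 of either genotype was left out (limma, adjusted p between 0.0766 and 0.17). Cpt1a, the liver-type transferase of the outer membrane and the regulated entry step, read 2.64, 2.78 and 2.85 against 2.50, 2.05 and 2.32. These groups did not overlap either, but the difference of -0.47 ± 0.18 did not pass (limma, adjusted p = 0.192). Slc25a20, the carnitine-acylcarnitine carrier, differed by -0.17 ± 0.30, and Mlycd, which removes the Cpt1 inhibitor malonyl-CoA, by -0.29 ± 0.18, both with overlapping groups. Cpt1b, the muscle-type transferase, was below the limit on all 6 arrays, so no fold is given.

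The acyl-CoA dehydrogenases, which start each turn of the spiral and differ in the chains they accept, included Acadm, whose fall had the smallest p of all members. Of 7 tested, 3 fell and 0 rose, all 7 differences were negative, and the median was -0.49, or -0.28 without wild-type replicate 2. Acadm, the medium-chain dehydrogenase (probe 387100), read 5.56, 5.53 and 5.56 in wild type and 4.56, 4.42 and 4.51 in mutants. Levels were nearly identical within a genotype, 5.55 ± 0.02 and 4.50 ± 0.07 (SD, n = 3 each), and the gap between the groups was 0.97. Acadm fell by 1.05 ± 0.12, or 2.07-fold, to 48.3% of wild type (limma, adjusted p = 0.000159). The call was lost only with no intensity trend (limma, adjusted p = 0.0608), among the alternatives run at the same threshold, and reached 0.00232 at most in the others.

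Acad11, a dehydrogenase family member that acts on long and very long chains, read 6.27, 6.24 and 6.15 in wild type and 5.58, 5.50 and 5.44 in mutants. The groups lay 0.57 apart and the fall was 0.71 ± 0.13 (limma, adjusted p = 0.00495). It too passed in each fit that lacked 1 array and was lost with no intensity trend (limma, adjusted p = 0.141). Acad9, known mostly as an assembly factor of respiratory complex I, read 4.69, 4.70 and 4.87 against 4.26, 4.39 and 4.14. It fell by 0.49 ± 0.13 (limma, adjusted p = 0.0484), a call lost in all 6 fits that lacked 1 array (limma, adjusted p between 0.0557 and 0.216). No floor, a pseudocount of 0.5, no filter on dim probes, robust variance, replicates 2 and 3 alone and the mean over probes ended it too (limma, adjusted p between 0.0543 and 0.0938).

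None of the other 4 dehydrogenases passed, and 1 of the 4, Acadsb, was lower at an unadjusted p under 0.05. Acadl, the long-chain enzyme, read 7.31, 7.60 and 7.40 in wild type and 7.15, 7.19 and 7.28 in mutants, with the groups 0.03 apart (-0.23 ± 0.16). Acadvl, the very-long-chain enzyme of the inner membrane, differed by -0.28 ± 0.15, with all mutant arrays below the wild-type arrays. The 95% interval ran from -0.59 to 0.12 for Acadl and from -0.61 to 0.05 for Acadvl, while that of Acadm ran from -1.32 to -0.78. Acads, the short-chain enzyme, differed by -0.23 ± 0.25, and Acadsb, which serves isoleucine breakdown, by -0.52 ± 0.22, both with overlapping groups. Whether Acadm differed from the other dehydrogenases in its response was not tested.

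In the later steps of the spiral, 2 of 3 tested members were lower, 0 higher, and the median was -0.61. Hadh, the short-chain hydroxyacyl-CoA dehydrogenase, read 4.31, 4.37 and 4.55 in wild type and 3.66, 3.93 and 3.80 in mutants, and fell by 0.61 ± 0.14 (limma, adjusted p = 0.0178). Acaa2, the mitochondrial thiolase that releases acetyl-CoA, read 5.24, 5.44 and 5.84 against 4.73, 4.44 and 5.18. Its groups lay only 0.06 apart, and it fell by 0.72 ± 0.19 (limma, adjusted p = 0.0456). Hadhb, the thiolase subunit of the trifunctional protein, read 6.90, 7.19 and 7.12 against 6.75, 6.65 and 6.66, a difference of -0.38 ± 0.15 that did not pass although the groups did not overlap. A second Hadhb probe was too dim to be tested. The Hadh call was lost when wild-type replicate 3, mutant replicate 1 or mutant replicate 3 was left out (limma, adjusted p between 0.0556 and 0.11). That of Acaa2 was lost for wild-type replicates 2 and 3 and mutant replicates 1 and 2, each left out alone (limma, adjusted p between 0.0864 and 0.225). It was also lost with no floor, a pseudocount of 0.5, the lowest 50% of probes left out, only probes with 6 values, replicates 2 and 3 alone, and the mean over probes (limma, adjusted p between 0.0543 and 0.0795).

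Unsaturated fatty acids need extra enzymes that move or reduce their double bonds, and 0 of the 3 tested here passed by limma, with 2 lower at an unadjusted p under 0.05. Decr1, the dienoyl-CoA reductase, read 6.99, 6.98 and 6.94 in wild type and 6.52, 6.52 and 6.63 in mutants (-0.41 ± 0.14; limma, adjusted p = 0.141). Eci1, a mitochondrial enoyl-CoA isomerase, read 6.16, 6.19 and 6.22 against 5.73, 5.71 and 5.79 (-0.44 ± 0.13; limma, adjusted p = 0.0706). In both, no mutant array reached the lowest wild-type array. Eci2, an isomerase also found in peroxisomes, differed by -0.19 ± 0.15 with overlapping groups.

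Electron transfer from the dehydrogenases to the respiratory chain runs through the flavoprotein subunits Etfa and Etfb to the membrane oxidoreductase Etfdh. Of these 3, Etfdh fell. It read 4.95, 5.0 and 4.98 in wild type and 4.30, 4.08 and 4.56 in mutants, a fall of 0.66 ± 0.14 (limma, adjusted p = 0.0145). The call was lost when wild-type replicate 3, mutant replicate 1 or mutant replicate 2 was left out (limma, adjusted p between 0.0517 and 0.0926). In those fits, in that order, the difference was -0.66, -0.65 and -0.55. Replicates 2 and 3 alone also ended the Etfdh call (limma, adjusted p = 0.0611). Etfa read 7.71, 7.84 and 7.82 against 7.39, 7.45 and 7.36 (-0.39 ± 0.17), and Etfb differed by -0.35 ± 0.14. Neither passed, and in both all mutant arrays lay below the wild-type arrays.

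Bdh1, the mitochondrial dehydrogenase that interconverts acetoacetate and beta-hydroxybutyrate, was the ketone step of the list. It read 3.77, 3.49 and 3.49 in wild type and 3.03, 3.02 and 3.11 in mutants. The groups lay 0.38 apart, and the difference of -0.53 ± 0.15 did not pass (limma, adjusted p = 0.0525, and between 0.0202 and 0.183 over the alternatives with an intensity trend). Other ketone body genes went the same way: of 5 tested, 2 fell, 0 rose and all 5 had mutant arrays below the wild-type arrays. Acat1, the mitochondrial thiolase that makes and splits acetoacetyl-CoA, fell by 0.71 ± 0.14 (limma, adjusted p = 0.00846, and 0.055 without wild-type replicate 3). Bdh2, a cytosolic relative of Bdh1, fell by 0.63 ± 0.17 (limma, adjusted p = 0.0458), a call held without wild-type replicate 1 and lost without any other single array (limma, adjusted p between 0.0908 and 0.181). No floor, a pseudocount of 0.5 and the mean over probes also ended it (limma, adjusted p between 0.0527 and 0.064). Oxct1, which activates ketone bodies for use, differed by -0.48 ± 0.18 and did not pass.

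**Figure D2:**
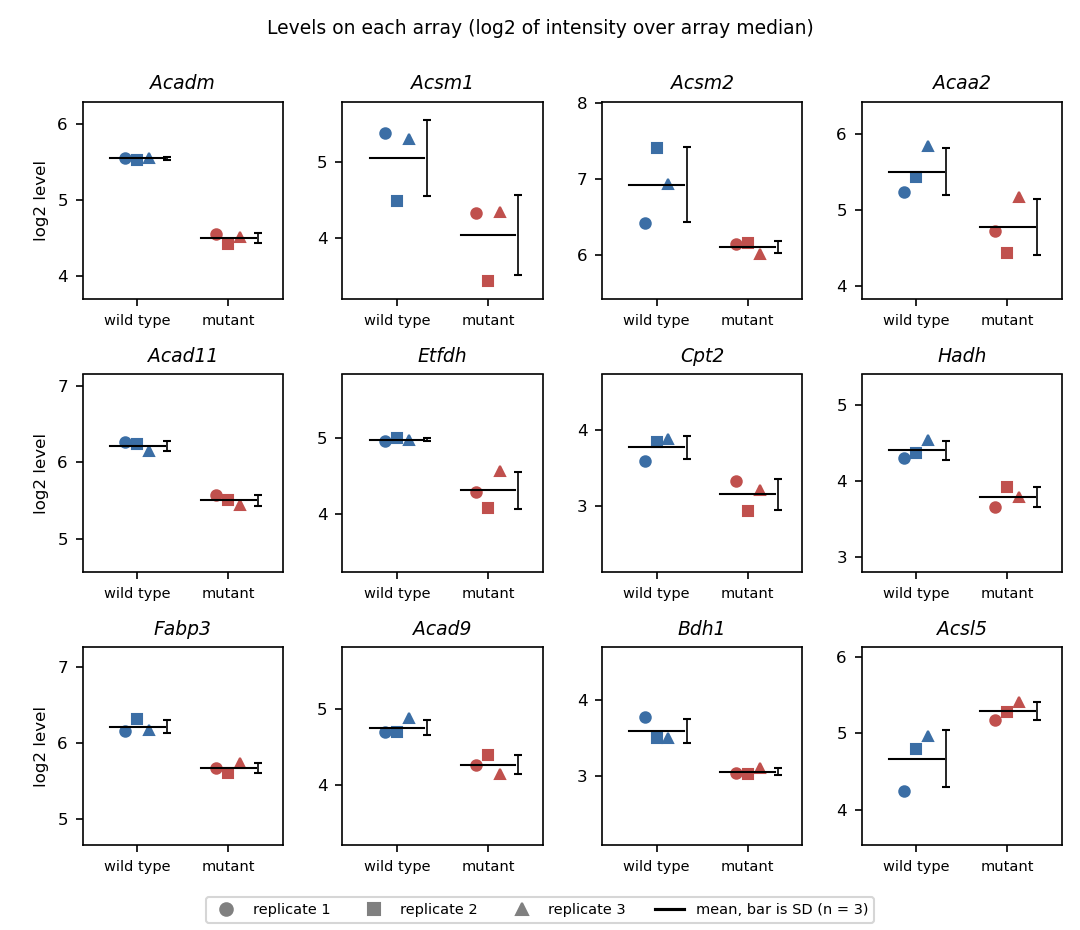
Level on each array (log2 of intensity over the array median) of the 10 members that fell and of Bdh1 and Acsl5, which did not pass; symbols mark the replicate number, lines the mean and bars the SD of 3 arrays. Each panel spans the same number of log2 units. The groups are apart in every panel, from 0.06 in Acaa2 to 0.97 in Acadm, and mutants are the higher group in Acsl5.

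Among regulators and carriers, 1 of 4 fell and 0 rose. Fabp3, the heart-type fatty acid-binding protein, read 6.15, 6.31 and 6.18 in wild type and 5.68, 5.61 and 5.74 in mutants, and fell by 0.54 ± 0.13 (limma, adjusted p = 0.0298). Leaving out each array but wild-type replicate 1 ended the call (limma, adjusted p between 0.0656 and 0.139), as did replicates 2 and 3 alone (0.0591). Fabp1, the liver-type binding protein and a classical PPAR alpha target, read 2.00, 0.90 and 1.43 against 0.88, -1.19 and 0.49. Only 1 mutant array was above the limit, and the difference of -1.39 ± 0.50 did not pass. Ppara itself read 0.66, 0.86 and 0.42 against -0.94, 0.64 and 0.41, with 2 wild-type arrays and 1 mutant array above the limit, so its level was barely measurable. Pdk4, the kinase that turns off pyruvate dehydrogenase, was below the limit on all 6 arrays.

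To set these members beside their promoters, 300-base windows from RefSeq (GRCm38.p6), 250 bases before the start and 50 from it on, were found for 28 of the 32 members and searched on both strands. AGGTCA, the half-site bound by PPAR and other nuclear receptors, was in the windows of 5 of the 28, and 16.3% of all 32851 windows hold it. Of 8 members that fell and had a window, 2 held it. The 5 were Acadm, Acsm1, Cpt1a, Acadvl and Fabp1. The direct repeat DR1 is 2 copies of AGGTCA with a single base between them. Exact copies of DR1, of the estrogen-related receptor motif TCAAGGTCA, which contains AGGTCA, and of the HNF4 motif CAAAGTCCA were in 0 member windows. They were in 0.0396%, 0.423% and 0.475% of all windows. Only exact matches were searched for, and copies with a changed base were not. GGGCGG was in 17 of the 28 members' windows, against 35.7% of all, and CCAAT in 13, against 37.4%. The 250 bases before the start are shown for the 2 members that fell and hold AGGTCA and for Fabp1, which holds it 2 times, with the match in capitals, read here as its reverse complement TGACCT.
Acadm, chr3:153944644-153944893, minus strand: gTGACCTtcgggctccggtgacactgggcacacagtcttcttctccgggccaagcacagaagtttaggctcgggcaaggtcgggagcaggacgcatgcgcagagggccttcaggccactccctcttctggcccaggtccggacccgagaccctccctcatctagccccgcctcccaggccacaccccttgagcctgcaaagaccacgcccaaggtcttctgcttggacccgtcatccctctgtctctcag
Acsm1, chr7:119617562-119617811, plus strand: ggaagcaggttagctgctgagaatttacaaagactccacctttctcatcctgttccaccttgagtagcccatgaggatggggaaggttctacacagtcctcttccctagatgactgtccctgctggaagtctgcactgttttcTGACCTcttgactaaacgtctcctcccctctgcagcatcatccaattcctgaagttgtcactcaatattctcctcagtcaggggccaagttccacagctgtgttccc
Fabp1, chr6:71199629-71199878, plus strand: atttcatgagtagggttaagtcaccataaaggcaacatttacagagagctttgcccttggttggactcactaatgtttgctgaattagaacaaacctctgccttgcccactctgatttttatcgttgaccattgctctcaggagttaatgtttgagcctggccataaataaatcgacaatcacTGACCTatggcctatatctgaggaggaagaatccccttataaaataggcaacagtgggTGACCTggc
Counted from the start, the match began at -249 in Acadm, -107 in Acsm1, and -67 and -9 in Fabp1. The match at -67 in Fabp1 is followed by atggcct, which is a single base from an exact DR1 and was not counted as DR1. A match describes letters in the window and is no measure of binding.

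Other lipid genes, 73 tested in 8 lists that share no member with the 31, were set beside them. Of the 73, 12 fell and 1 rose, with 27 lower and 6 higher at an unadjusted p under 0.05 (5.48% and 11.4% of all probes), and the median difference was -0.33. Of 13 peroxisomal oxidation genes, 5 fell, 0 rose and all 13 differences were negative, with a median of -0.56. Ehhadh, the peroxisomal bifunctional enzyme, fell by 0.95 ± 0.14 (limma, adjusted p = 0.000752), and Acox2, an oxidase of branched chains and bile acid precursors, by 0.85 ± 0.16. Phyh, which starts alpha-oxidation of phytanic acid, fell by 0.76 ± 0.15, Amacr, a racemase of branched chains, by 0.77 ± 0.17, and Scp2, a thiolase and lipid carrier, by 0.67 ± 0.16. Ehhadh, Acox2 and Phyh passed in each fit that lacked 1 array. Scp2 was lost in 4 of those 6 fits, those lacking replicate 2 or 3 of either genotype (limma, adjusted p between 0.0616 and 0.108). Amacr was lost in 3, those lacking wild-type replicate 2, mutant replicate 1 or mutant replicate 3 (limma, adjusted p between 0.068 and 0.0824), and with replicates 2 and 3 alone (0.0724).

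Of 12 other genes of mitochondrial oxidation and propionate use, 2 fell, 0 rose and the median was -0.37. Pccb, a subunit of propionyl-CoA carboxylase, fell by 0.56 ± 0.14 and Mmut, methylmalonyl-CoA mutase, by 0.53 ± 0.14, and both calls held without wild-type replicate 1 and were lost without any other single array (limma, adjusted p between 0.0624 and 0.2), that of Mmut also with robust variance (0.0556). Echs1, the short-chain hydratase of the spiral, differed by -0.45 ± 0.14 and did not pass. Of 6 carnitine supply genes, Slc22a5, the plasma membrane carnitine transporter, fell by 0.86 ± 0.18 (limma, adjusted p = 0.012, and 0.0601 without mutant replicate 2), 0 rose, and the list median was -0.42.

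Uptake, storage and synthesis genes had few calls. Of 10 uptake and storage genes 0 passed by limma in either direction, 2 were lower and 2 higher at an unadjusted p under 0.05, and the median was -0.13. Of 9 synthesis genes 1 fell and 0 rose, and the median was 0.26. The gene that fell was Me1, a cytosolic malic enzyme that supplies reducing power (-0.72 ± 0.18, a call that held only for wild-type replicate 1 among the arrays left out, with limma adjusted p otherwise between 0.078 and 0.135, and 0.0556 with no floor). Of 8 genes for PPAR family members and partner regulators 0 passed by limma, 1 being lower and 0 higher at an unadjusted p under 0.05, with a median of -0.14. Of 16 PPAR alpha targets listed outside beta-oxidation 11 had a probe and 10 were tested, of which 1 fell and 1 rose. At an unadjusted p under 0.05, 3 of the 10 were lower and 2 higher (5.48% and 11.4% of all probes), and the median was -0.19. Cyp4a14, a fatty acid omega-hydroxylase, fell by 1.01 ± 0.18 (limma, adjusted p = 0.00462). Cidec, a lipid droplet protein, read 2.84, 3.02 and 2.80 in wild type and 4.36, 3.92 and 4.01 in mutants, and rose by 1.21 ± 0.16 (limma, adjusted p = 0.000328). Differences between these lists were not tested. With no intensity trend, 0 of the 73 passed by limma in either direction, 15 being lower and 2 higher at an unadjusted p under 0.05 (5.06% and 9.05% of all probes).

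**Figure D3:**
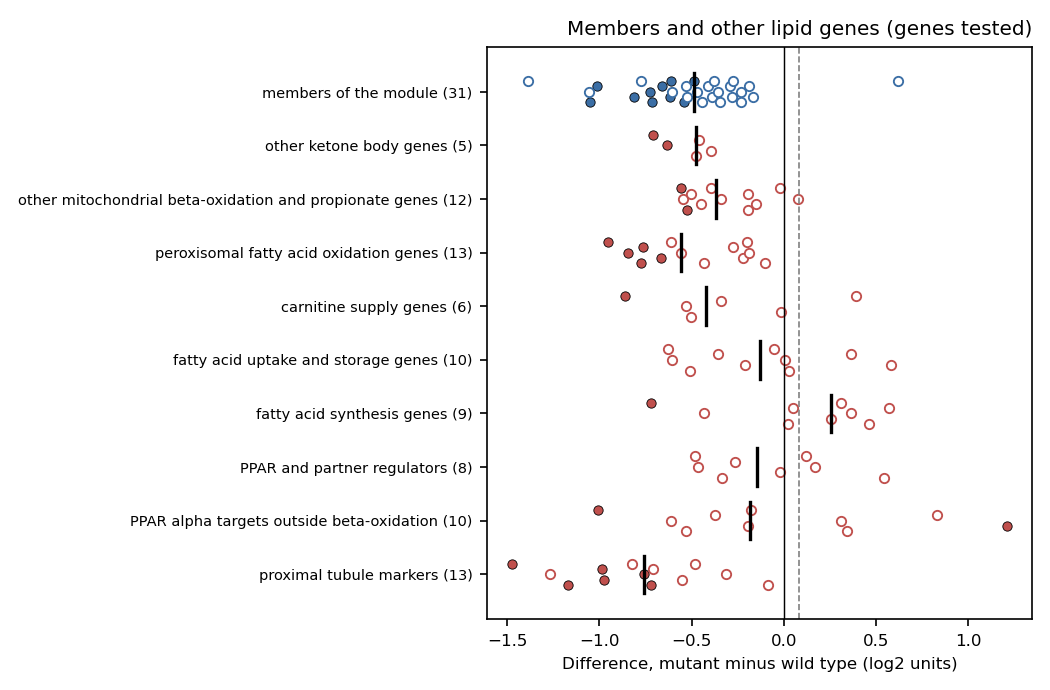
Difference between genotypes (mutant minus wild type, log2 units) of the 31 members tested, of 8 other lists of lipid genes and of proximal tubule markers; filled points passed, black bars are list medians and the dashed line is the median of all genes tested (0.08). Medians run from -0.76 for proximal tubule markers, -0.56 for peroxisomal genes and -0.49 for the members to 0.26 for synthesis genes.

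Markers of some cell types moved with the same contrast, and those of others did not. Fewer cells of a type and less RNA per cell cannot be told apart in these whole-tissue samples. Of 13 proximal tubule markers tested, 6 fell, 0 rose, all 13 differences were negative and the median was -0.76. Their summed intensity, in units of the array median, was 1004 to 1182 on wild-type arrays and 542 to 594 on mutant arrays. Such linear sums weigh the brightest gene most, here Miox, at 9.41 in wild type and 8.42 in mutants on the log2 scale. Col3a1, Umod and Calb1 are the brightest of the matrix, thick limb and distal lists below. Fibroblast and matrix markers (6 of 7 higher) summed to 80.7 to 120 in wild type and 371 to 404 in mutants. Macrophage and myeloid markers (7 of 8 higher) summed to 37.7 to 44.4 and 169.8 to 252. Injured tubule markers (5 of 5 higher) summed to 4.74 to 6.71 and 74.0 to 82.4. The sums of thick ascending limb markers (1 of 5 lower) overlapped between genotypes, at 273 to 297 and 219 to 312. Within that list Egf fell by 1.02 ± 0.14 (limma, adjusted p = 0.000747), Cldn16 differed by 0.38 ± 0.14 with all mutant arrays above wild type and did not pass, and Umod overlapped. The sums of distal convoluted tubule markers (1 of 5 lower) overlapped too, at 256 to 407 and 285 to 379, and Pvalb fell by 1.44 ± 0.25 (limma, adjusted p = 0.00337). Endothelial markers (1 of 5 higher) summed to 55.3 to 65.8 and 70.9 to 88.6, and lymphocyte markers (1 of 7 higher) to 11.5 to 12.6 and 15.4 to 19.3. Of 7 collecting duct markers 0 passed by limma (median difference 0.13), with sums of 58.2 to 59.8 and 60.2 to 67.8. Of 3 podocyte markers tested 0 passed (median -0.03), with overlapping sums of 15.3 to 18.5 and 14.8 to 16.4. The part of these cell types in the differences of the members was not tested.

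Tissues next to the kidney were checked through their own markers. Of 7 skeletal or cardiac muscle markers 5 were below the limit on all 6 arrays, as were 3 of 4 adrenal cortex markers. Ucp1, which marks brown fat, was above the limit on wild-type replicate 3 (2.90) and mutant replicates 1 and 2 (1.12 and 2.75) and below it on the other arrays, so it did not separate the genotypes. Of the 4 adipocyte markers tested, 1, Cidec, rose as given above and 0 fell, and the groups of the others overlapped. Adipoq ran from -0.08 to 2.78 in wild type and from -1.47 to 2.01 in mutants. Of 3 liver markers tested, 0 passed by limma, and the groups of all 3 overlapped. Ttr, at a mean of 6.21 in wild type and 6.60 in mutants, and Apoa1 were above the limit on all 6 arrays. Alb was above it on 1 array of each genotype. Replicate 1 of each genotype also stood apart in sex-linked genes. Xist read 2.21 and 3.00 there against -0.21 or less on the other arrays, and Eif2s3y lay at the floor there against 3.01 or more. The fit as reported had no term for this pattern. With that pattern as a block, 12 members fell and 1, Acsl5, rose. With replicates 2 and 3 alone, 5 fell and 0 rose.

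**Figure D4:**
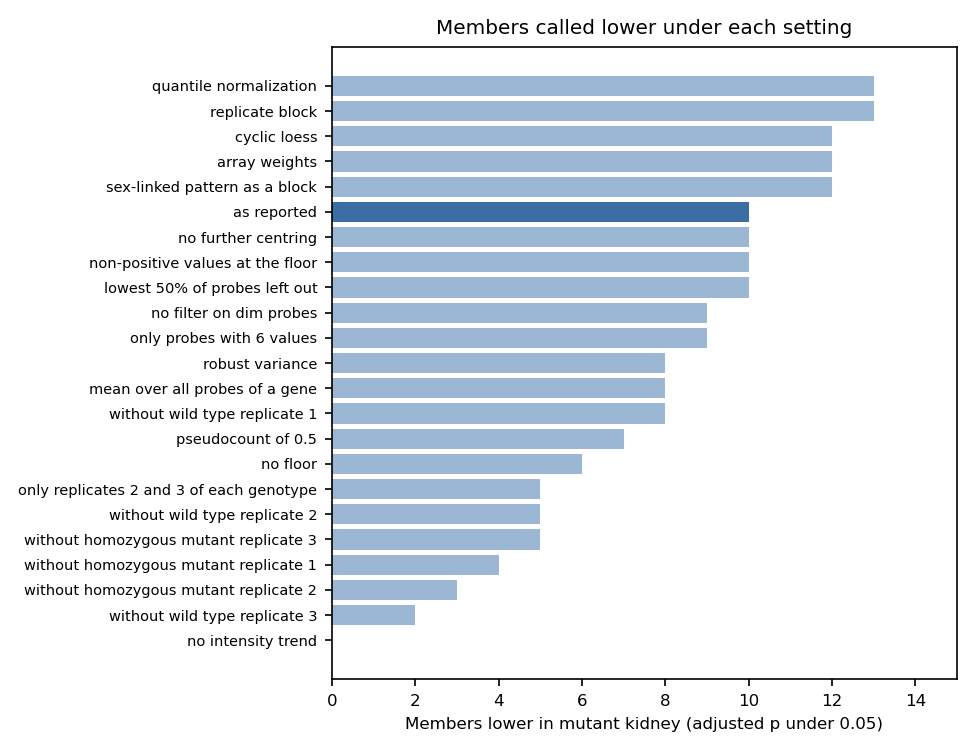
Number of members called lower in mutant kidney (adjusted p under 0.05) in the fit as reported and under each other setting, out of the members that setting tested. Counts run from 0 with no intensity trend to 13 with quantile normalization or a replicate block.

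Before further scaling, array medians lay between 0.994 and 0.997 and precision is limited by having 3 arrays per genotype. The median SD of a probe was 0.34 in wild type and 0.31 in mutants. Among probes called, 76.4% were higher in mutants, against 61.5% after quantile normalization and 62.9% after cyclic loess. Under those scalings 13 and 12 members fell and Acsl5 rose.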

How the data were processed

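The deposited table holds linear intensities, 1 per probe for every array. The sources used here do not name the software; judged from the values, the authors' intensities were background-subtracted and divided by a level near the array median. Between 2.66% and 3.46% of values per array were 0 or negative.

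The deposited intensities were divided by the array median. Those of 0 or less were set missing, a floor was set at the 10th percentile of the positive ones (0.290), and log2 was then taken. Probes needed 2 values per genotype, and the dimmest 25% were left out. Genotypes were compared by limma 3.58.1 in R 4.3.3 (lmFit, and eBayes with an intensity trend), two-sided. The low-signal limit is the mode of the linear values plus 3 times the spread below it, and was set after values were seen. Of 34937 probes, 21590 carried 1 gene symbol, 681 several and 12666 none.

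Members, lists and tests were chosen with earlier results of these data known. All 32 member symbols matched RefSeq gene identifiers. Values on all arrays are given for members past the threshold and, per step, for the member with the highest level and that with the largest difference; differences are given for the rest. Other lipid genes are named where they passed. The array values of Acsl3, Acsl5, Cpt1a, Ppara and Cidec were given outside this rule, after their values were seen. So were the genes Echs1, Oxct1, Ucp1, Egf, Cldn16, Umod, Pvalb, Miox, Col3a1, Calb1, Xist, Eif2s3y, Adipoq, Ttr, Apoa1 and Alb.

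On simulated arrays with the means and spreads of the 25834 probes, 0 of 34 changed probes above the limit were recovered at 0.5 log2 units, 9 of 28 at 1 and 21 of 29 at 2, with 1 false call. Below the limit, 0 of 22 were recovered at 1 and 2 of 21 at 2. Far fewer probes were changed there than the 1392 called in the data, which makes the adjusted threshold harder to pass. These rates are therefore not those of the fit reported here.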

Additional observations from a re-analysis of the deposited data

How the results depend on the processing

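Over 24 alternatives, the median difference of the members stayed negative and was between -0.55 (cyclic loess) and -0.44. Of 735 values of single members under these alternatives, 709 were negative, and 2 changed sign: Acads with only replicates 2 and 3 (0.034) and Pdk4 without mutant replicate 1 (0.14; its values ran from -0.59 to 0.14 as arrays were left out). No intensity trend gave 0 members lower, 0 other lipid genes lower, 0 higher, 12 probes lower and 179 higher. Quantile normalization gave 1 member higher, 551 probes lower and medians of -0.52 for the shuttle and -0.68 for Bdh1; cyclic loess gave 1, 554, -0.53 and -0.65. With no floor 6 members fell, and with a pseudocount of 0.5 the activation median was -0.60. No filter on dim probes, robust variance and the sex-linked block, the last chosen after seeing the data, each gave 1 member higher. Only replicates 2 and 3 gave 5 members lower, 634 probes higher, an activation median of -1.0 and a regulator median of -0.37. At 0.01 the counts were 2 members, 115 probes and 5 other lipid genes lower and 563 probes higher, and at 0.1 they were 1 member higher, 513 probes lower and 2 other lipid genes higher. The causes of these shifts were not tested.

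Without single arrays, members lower ran from 2 to 8 and higher from 0 to 1, probes lower from 154 to 325 and higher from 588 to 1026, and other lipid genes lower from 6 to 14 and higher from 1 to 2. Medians ran from -1.0 to -0.42 for activation, -0.55 to -0.28 for dehydrogenases and -0.76 to -0.33 for regulators. These fits have fewer samples. The replicate numbers were not taken as pairs, although replicate 1 of both genotypes shares the sex-linked pattern. Deviations of same-numbered arrays correlated at 0.07, 0.02 and 0.07, each array best with its own number, and a replicate block gave 13 members lower and 1 higher, 489 probes lower and 1367 higher. Signal over background limits Acsl4, Acsm5, Cpt1b, Ppara, Pdk4 and Fabp1.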
